A study of Mus musculus with 6 samples.

Results

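The mouse genes described here encode the machinery that joins chromosomes to the mitotic spindle: 40 genes of the centromere, the kinetochore and the spindle checkpoint. They were taken by gene symbol, and all 40 were found among the 23279 named genes of the arrays, each with 1 probe set. Expression was profiled on 6 arrays of primary myoblasts, the dividing precursor cells of skeletal muscle, from limb muscles of C57bl6N mice. All cultures carried the same alleles, Pax7-CreERT2, a tamoxifen-inducible Cre recombinase driven by the muscle stem cell gene Pax7, and 1 Ctnnb1 (beta-catenin) allele with loxP sites on either side of exon 3 (written Beta-cetenin-Exon3-loxP/+ in the labels). All had been grown for 5 passages with 20% FBS and 2 ng/ml bFGF and then kept in DMEM with 2% HS for 24 hours, which induces differentiation. The 3 activated cultures received 4-OH tamoxifen in ethanol, to remove exon 3 and leave a stabilised beta-catenin, and the 3 control cultures received ethanol alone. No culture without the Cre or the loxP allele was analysed here, so the drug, recombination and active beta-catenin cannot be told apart. The sources used here give neither the dose nor the share of recombined cells.

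As background, every chromosome carries a centromere whose nucleosomes hold the histone variant CENP-A. A constitutive network of CENP proteins sits on that chromatin through the cell cycle, and in mitosis the Ndc80 and Ska complexes dock on it and hold microtubules. Kinases and Mad and Bub proteins delay anaphase until every kinetochore is attached, and the chromosomal passenger complex releases wrong attachments. Many of these genes are transcribed mainly in G2 and mitosis, and myoblasts leave the cell cycle when they differentiate into fibres.

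Of 7 myoblast markers, 5 had a higher and 2 a lower mean in activated cultures. The myoblast regulator Myod1 had log2 values of 8.77, 9.45 and 10.23 in activated replicates 1, 2 and 3 and 8.64, 9.66 and 9.67 in control replicates 1, 2 and 3. The muscle intermediate filament gene Des ran from 10.30 to 11.31 in activated and from 8.77 to 9.81 in control cultures. Cdh15 and Itga7, adhesion genes of myoblasts, were also higher on every activated than on every control array (log2 differences 1.03 and 0.98). The adhesion molecule Vcam1 was lower on every activated array, with a difference of -1.38 ± 0.38 (SE). Pax7 ran from 7.08 to 7.99 in activated and from 7.77 to 8.39 in control cultures, a difference of -0.60, and Myf5 ran from 4.76 to 5.46 in activated and from 4.04 to 5.29 in control cultures. Axin2, a feedback gene of the beta-catenin pathway, was at 5.50, 5.85 and 6.54 in activated cultures, against 4.55, 3.81 and 4.58 in control cultures. Ctnnb1 was at 7.91, 8.79 and 8.91, against 8.54, 8.71 and 8.30, on a probe set for the whole gene that does not read the loss of a single exon. The arrays had medians between 4.08 and 4.37 over the named genes and SDs between 1.72 and 2.13. Control replicate 3 correlated least with the other arrays on average (0.896).

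All 40 genes had a lower mean in activated than in control cultures, where 59.7% of all genes did. Their median log2 difference, activated minus control, was -1.20, beside -0.08 over all genes. In 24 of the 40 the mean was more than 2-fold lower, against a background of 1.9% of all genes. Every activated array lay below every control array in 21 of the 40 genes, against 7.4% of all genes, and in 0 of the 40 did every activated array lie above (5.4% of all genes). The mean over the 40 genes was 4.67, 4.68 and 5.27 in activated replicates 1, 2 and 3, against 5.97, 6.50 and 6.01 in control replicates 1, 2 and 3. The groups therefore did not overlap in this mean, and activated replicate 3 stood nearest to the control cultures. In a whole culture, fewer dividing cells and less of each RNA per cell cannot be told apart.

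No gene of the 40 passed limma's test after Benjamini-Hochberg adjustment over all genes, and neither did any other gene (0 of 23279, a background of 0%). The adjusted p of the 40 ran from 0.131 for Ska3 to 0.934 for Zwint. At an unadjusted p under 0.05, 24 of the 40 were lower and 0 higher, where the background was 3.42% lower and 4.44% higher. Ranked by p among the 13896 genes with a lower mean, which include all 40, 10 of the leading 100 were among these 40. Ranked by p among all 23279 genes, 8 of the leading 100 were. With the replicate number as a block, 27 of the 40 were lower at an unadjusted p under 0.05 (background 7.01%). Ska3 fell with the block (limma, adjusted p = 0.0479), 1 of 3 genes of the whole table that did (0.0129%). That call was lost with the block and without replicate 1 (0.262) or replicate 2 (0.193), and after repeated quantile normalization with the block (0.0671, a setting chosen after seeing the data). Without activated replicate 3, Cenpe and Cenph passed (limma, adjusted p = 0.0406 and 0.0457), 2 of the 28 genes of the whole table that did (0.12%). Without any other single array 0 of the 40 passed, and the adjusted p of Cenpe was 0.576 without activated replicate 1 and 0.841 without activated replicate 2.

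**Figure D1:**
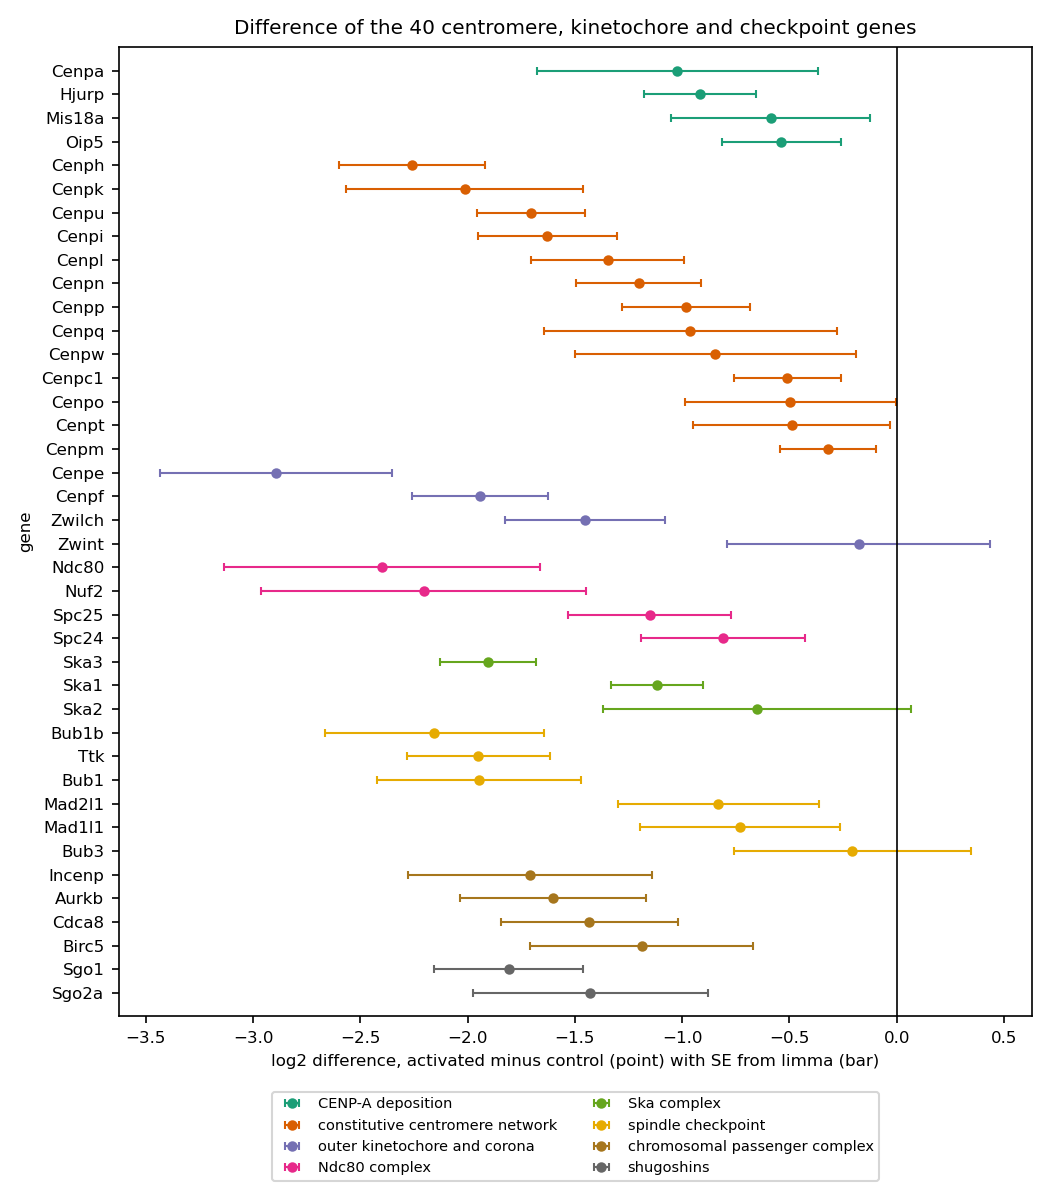
Log2 difference, activated minus control, for each of the 40 genes (point) with limma's standard error (bar), grouped and coloured by complex. All points lie left of 0, from Zwint at -0.18 to Cenpe at -2.89, and within the constitutive centromere network the values spread from -0.32 (Cenpm) to -2.26 (Cenph).

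Promoter sequences are shown because these genes were lower together, and because many mitotic genes share short promoter elements. The word TTTGAA is the core of the cell cycle genes homology region, a site of the MuvB complexes that act on cell cycle genes, and the CCAAT box is a site of the factor NF-Y. RefSeq promoters (GRCm38.p6, 250 bases before to 50 after each gene's start) were at hand for 35 of the 40 genes, and both strands were searched. TTTGAA was found in 14 of the 35 genes, CCAAT in 25 of the 35 (71.4%) and both in 12 of the 35 (34.3%). Of all 32851 promoters in the table, 17.9% held TTTGAA, 37.4% CCAAT and 6.95% both. Of the 17466 measured genes with a promoter, 17.8% held TTTGAA, 41.9% CCAAT and 7.17% both. The E2F words TTTGGCGC, TTTCCCGC, TTTGCCGC and TTTCGCGC were found in 3 of the 35 genes (8.57%; Cenpl, Cenpm and Mis18a). They were found in 3.26% of the measured genes with a promoter and in 2.26% of all promoters. The 14 genes with TTTGAA had a median log2 difference of -1.27 and the other 21 one of -0.98. For CCAAT the medians were -1.35 with and -0.91 without, and for TTTGAA together with CCAAT -1.18 and -1.19. For at least 2 CCAAT boxes they were -1.09 with and -1.20 without, and for the E2F words -0.59 and -1.20. These matches are a description and were not tested. The 6 genes with the smallest p whose TTTGAA lies between 120 bases before and 30 after the start are printed over that window, followed by Zwint, the gene with the smallest difference, which has CCAAT boxes and no TTTGAA in its promoter. TTTGAA did not sort the 35 genes in this way. Bub3, with the next smallest difference (-0.21), holds TTTGAA, while the promoters of Cenpu, Cenph and Cenpe (-1.71, -2.26 and -2.89) do not. Capitals mark TTTGAA (or TTCAAA on the other strand) and CCAAT (or ATTGG), and in Cdca8 the TTTGAA and the last ATTGG overlap by 1 base.
Ska3, chr14:57826134-57826283, minus strand: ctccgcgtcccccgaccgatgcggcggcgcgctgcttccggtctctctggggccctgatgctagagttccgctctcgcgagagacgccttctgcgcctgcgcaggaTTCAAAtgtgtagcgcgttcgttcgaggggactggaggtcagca
Cenpf, chr1:189688057-189688206, minus strand: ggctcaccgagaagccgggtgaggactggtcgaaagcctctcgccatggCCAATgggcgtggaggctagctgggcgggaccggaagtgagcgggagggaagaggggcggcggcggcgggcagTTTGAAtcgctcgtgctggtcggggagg
Ttk, chr9:83834569-83834718, plus strand: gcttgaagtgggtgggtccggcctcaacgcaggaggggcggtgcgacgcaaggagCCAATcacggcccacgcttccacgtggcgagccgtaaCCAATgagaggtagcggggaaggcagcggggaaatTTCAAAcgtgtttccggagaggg
Cenpn, chr8:116921620-116921769, plus strand: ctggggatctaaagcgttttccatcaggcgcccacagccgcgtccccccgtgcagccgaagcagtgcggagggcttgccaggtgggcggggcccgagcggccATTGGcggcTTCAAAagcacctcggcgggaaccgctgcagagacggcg
Hjurp, chr1:88277550-88277699, minus strand: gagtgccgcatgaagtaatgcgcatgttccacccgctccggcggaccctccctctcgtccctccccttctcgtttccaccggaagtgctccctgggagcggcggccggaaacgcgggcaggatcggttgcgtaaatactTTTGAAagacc
Cdca8, chr4:124936888-124937037, minus strand: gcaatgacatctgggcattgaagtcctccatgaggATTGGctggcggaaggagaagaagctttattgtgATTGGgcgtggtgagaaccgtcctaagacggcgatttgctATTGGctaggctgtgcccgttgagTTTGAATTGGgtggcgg
Zwint, chr10:72654726-72654875, plus strand: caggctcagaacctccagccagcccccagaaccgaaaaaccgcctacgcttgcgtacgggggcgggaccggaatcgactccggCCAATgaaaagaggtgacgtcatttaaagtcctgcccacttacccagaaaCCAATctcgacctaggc

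Cenpa and the genes that place its product were lower in mean in 4 of 4. Of these, 1 had groups that did not overlap, with activated below (7.4% of all genes). Hjurp (Entrez 381280), the chaperone that delivers CENP-A to centromeres, was at 6.25, 6.23 and 6.49 in activated replicates 1, 2 and 3, against 6.79, 7.48 and 7.45 in control cultures. The activated values were close together and all below the lowest control value, by 0.30, and the means differed by -0.92 ± 0.26 (SE; limma, adjusted p = 0.414). Its promoter above holds a TTTGAA just after the start and no CCAAT within the printed window. Cenpa (Entrez 12615) itself, the centromeric histone, was at 4.30, 5.44 and 6.59 in activated cultures, against 5.45, 6.65 and 7.29 in control cultures. The groups overlapped, and yet within each numbered pair the activated array was lower, by 1.15, 1.22 and 0.70 on the log2 scale. The licensing factors Mis18a and Oip5 differed by -0.59 and -0.54, and in pair 3 their differences were 0.86 and 0.05. Oip5 was low on all arrays, from 2.53 to 3.38 in activated and from 3.33 to 3.50 in control cultures. Leaving out 1 array in turn gave -1.60 to -0.45 for Cenpa, and the difference of Mis18a was smallest at -0.23.

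The genes of the constitutive centromere network among the 40 were lower in mean in 13 of 13, with a median log2 difference of -0.98. Not all measured network genes were lower. Outside the 40, Itgb3bp, Cenpx and Cenps differed by 0.02 ± 0.33, 0.59 ± 0.62 and -0.35 ± 0.34 (SE), with overlapping groups. In 8 of the 13 the groups did not overlap, with activated below, against 7.4% of all genes. In the CENP-H, CENP-I, CENP-K and CENP-M group, which carries the connection from CENP-A chromatin outwards, Cenph (Entrez 26886) was at 4.00, 4.41 and 5.27 in activated replicates 1, 2 and 3, against 6.88, 6.90 and 6.68 in control replicates 1, 2 and 3. Its 3 control values lay within a narrow band, well above the highest activated value. The means, 4.56 ± 0.65 and 6.82 ± 0.13 (SD, n = 3 each), differed 4.78-fold (-2.26 ± 0.34, SE; limma, adjusted p = 0.175).
Cenpi (Entrez 102920) was at 3.91, 4.30 and 4.62 in activated cultures, against 5.35, 6.31 and 6.06 in control cultures, a log2 difference of -1.63 ± 0.32 (SE). Cenpk (Entrez 60411) was at 4.07, 2.93 and 3.25, against 5.95, 6.13 and 4.20, and its control replicate 3 lay only 0.13 above the highest activated value. Cenpm, of the same group, differed by -0.32 ± 0.22 (SE), and its values overlapped between the groups.

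Cenpu (Entrez 71876), whose product recruits the kinase Plk1 to the centromere, had the smallest p of the network. It was at 3.09, 3.58 and 3.14 in activated cultures, against 4.95, 5.26 and 4.71 in control cultures. Cenpu was among the dim genes left out in an alternative described below. The groups were 1.13 apart at their closest, and the difference was similar in each pair (-1.87, -1.68 and -1.57), with a mean difference of -1.71 ± 0.25 (SE; limma, adjusted p = 0.175). Its partners in the CENP-O, CENP-P and CENP-Q group were less far apart: Cenpp differed by -0.98 ± 0.30, Cenpq by -0.96 ± 0.68 and Cenpo by -0.50 ± 0.49 (SE). Of these partners, Cenpp alone had groups that did not overlap. Leaving out 1 array in turn gave -1.79 to -0.55 for Cenpq and -1.10 to -0.13 for Cenpo.

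Cenpn (Entrez 72155), whose product reads the CENP-A nucleosome directly, was at 4.39, 4.25 and 5.17 in activated cultures, against 5.80, 5.94 and 5.67 in control cultures. Cenpl (Entrez 70454), its partner, was at 3.19, 3.40 and 3.42, against 4.21, 5.48 and 4.37. In both genes every activated array was below every control array, and the log2 differences were -1.20 ± 0.29 and -1.35 ± 0.35 (SE). Cenpt and Cenpw, histone-fold proteins that reach from DNA towards the Ndc80 complex, differed by -0.49 ± 0.46 and -0.85 ± 0.65. Leaving out 1 array in turn gave -0.92 (without control replicate 1) to -0.14 (without control replicate 3) for Cenpt. In Cenpw, control replicate 2 (7.15) stood above the other controls (4.84 and 4.49), and the difference was -0.0188 without it. The scaffold gene Cenpc1 differed by -0.51 ± 0.25, with the groups 0.04 apart.

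The 4 genes of the Ndc80 complex, the main microtubule coupler, were all lower in mean. In 0 of the 4 were the groups apart, where 7.4% of all genes had every activated array below every control array. Ndc80 (Entrez 67052) was at 3.40, 4.09 and 6.22 in activated replicates 1, 2 and 3, against 6.89, 7.81 and 6.20 in control replicates 1, 2 and 3. Its dimer partner Nuf2 (Entrez 66977) was at 3.47, 4.91 and 6.67, against 7.79, 7.34 and 6.53. In both genes activated replicate 3 reached control replicate 3, while activated replicates 1 and 2 lay below every control. The Ndc80 difference was -2.40 ± 0.74 (SE; limma, adjusted p = 0.466). It was -3.22 without activated replicate 3 and -1.81 without activated replicate 1. Nuf2 differed by -2.20 ± 0.76 with all arrays and by -3.03 without activated replicate 3, and by -1.43 without activated replicate 1. The globular partners Spc25 and Spc24, which anchor the complex to the inner kinetochore, differed by -1.15 ± 0.38 and -0.81 ± 0.38 (-0.42 for Spc24 without control replicate 2).

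The Ska complex tracks microtubule ends and strengthens Ndc80 attachments. Ska3 (Entrez 219114), which ranked 8 by p among all 23279 genes, was at 4.36, 4.23 and 4.01 in activated cultures, against 6.32, 6.10 and 5.90 in control cultures. The groups were 1.54 apart and the values within each group close together, with means of 4.20 ± 0.18 and 6.11 ± 0.21 (SD, n = 3 each), a 3.74-fold difference (-1.90 ± 0.22, SE; limma, adjusted p = 0.131). The pair differences were -1.95, -1.86 and -1.90, so activated replicate 3 did not stand near its control here as it did for Ndc80. Ska1 (Entrez 66468) was at 3.96, 3.81 and 3.96, against 4.85, 4.96 and 5.26, a log2 difference of -1.12 ± 0.21 (SE) with separate groups. Ska2 (Entrez 66140) differed by -0.65 ± 0.72, and its replicate 3 was low in both groups (4.33 in activated and 5.05 in control, against 6.25 or more on the other arrays). Its differences within pairs 1, 2 and 3 were -0.45, -0.79 and -0.72.

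In the outer kinetochore and corona, Cenpe (Entrez 229841), the kinesin that carries chromosomes to the spindle equator, had the most negative log2 difference of the 40 genes. It was at 4.46, 3.84 and 6.10 in activated cultures, against 7.64, 7.49 and 7.95 in control cultures. The control values were close together and the activated values were not, with means of 4.80 ± 1.17 and 7.69 ± 0.23 (SD, n = 3 each), a 7.42-fold difference (-2.89 ± 0.54, SE; limma, adjusted p = 0.252). Cenpf (Entrez 108000), a coiled-coil protein that accumulates in G2, was at 5.45, 5.29 and 6.31, against 7.82, 7.38 and 7.68, with the groups 1.07 apart (-1.94 ± 0.32, SE; limma, adjusted p = 0.196). Zwilch (Entrez 68014), a subunit of the complex that recruits dynein and Mad1 to kinetochores, was at 3.94, 4.02 and 5.04, against 5.61, 5.45 and 6.29. All its activated values were below the controls, by at least 0.41. Zwint (Entrez 52696), a Knl1-bound adaptor, had overlapping groups. It was at 5.53, 6.65 and 7.15 in activated cultures, against 5.51, 6.65 and 7.70 in control cultures, a difference of -0.18 ± 0.61 (SE; limma, adjusted p = 0.934) whose sign turned without activated replicate 1 (0.28) or control replicate 3 (0.36).

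**Figure D2:**
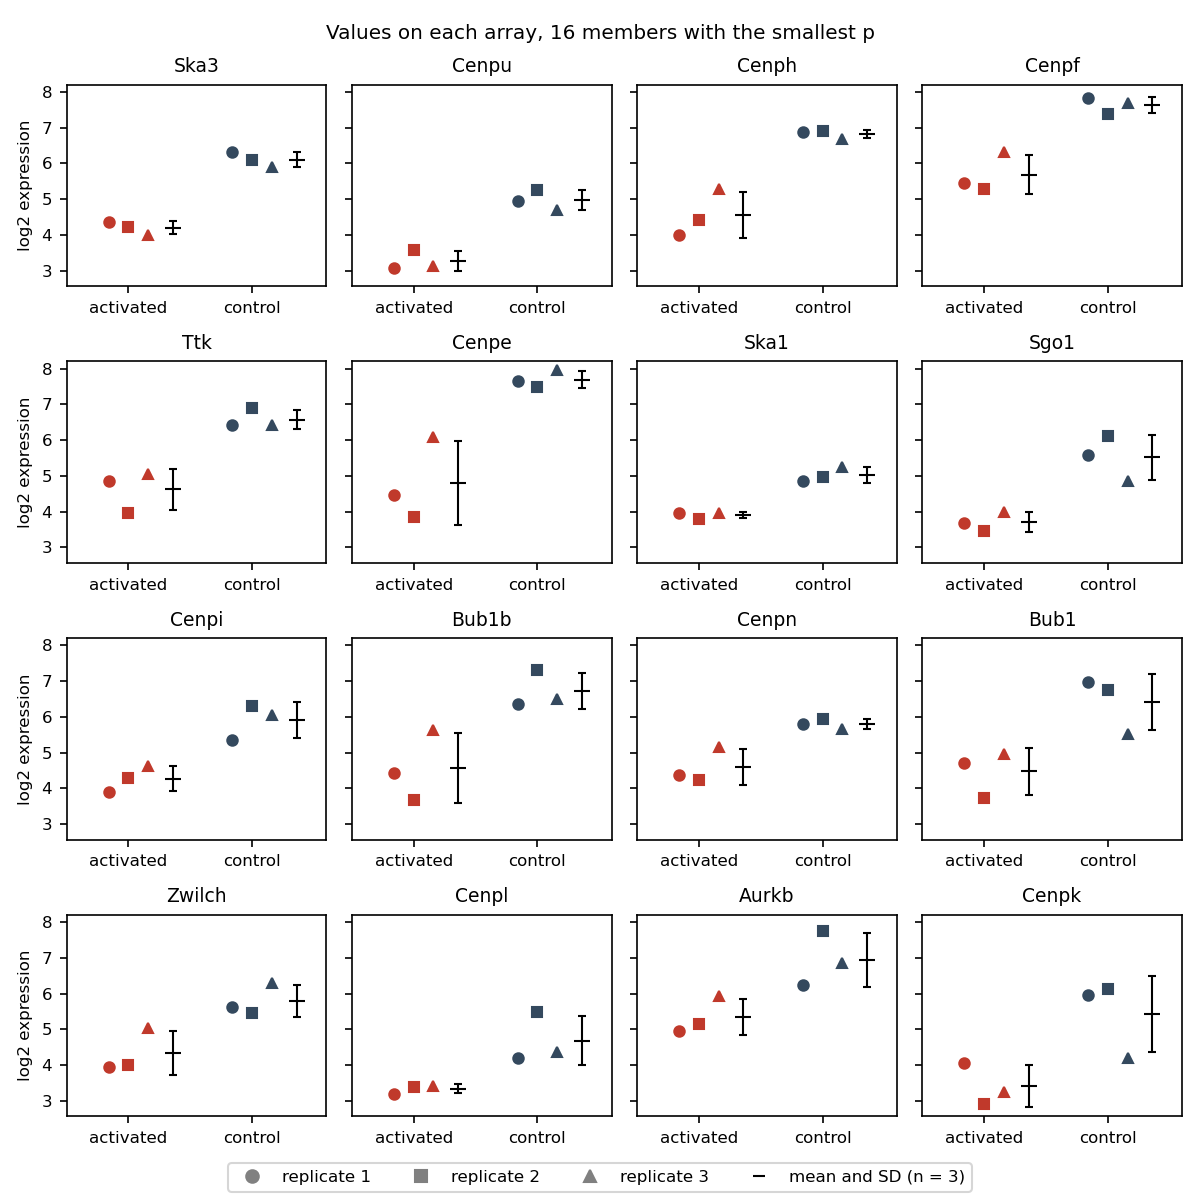
Log2 expression on each array for the 16 genes with the smallest p, activated at left and control at right in each panel, with the mean and SD (n = 3) beside the points. In every panel the 3 activated values lie below the 3 control values, with the gap widest in Ska3 (1.54) and narrowest in Cenpk (0.13).

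All 6 spindle checkpoint genes had a lower mean in activated cultures. In 3 of the 6 the groups did not overlap, with activated below (7.4% of all genes). Ttk (Entrez 22137), the kinase Mps1 that starts checkpoint signalling, was at 4.85, 3.96 and 5.06 in activated cultures, against 6.42, 6.89 and 6.41 in control cultures (-1.95 ± 0.33, SE; limma, adjusted p = 0.211). Bub1 (Entrez 12235), which marks centromeric histone H2A and recruits shugoshin, was at 4.72, 3.74 and 4.98, against 6.99, 6.76 and 5.53. Bub1b (Entrez 12236), encoding BubR1 of the mitotic checkpoint complex, was at 4.42, 3.67 and 5.63, against 6.36, 7.31 and 6.51. In all 3 genes activated replicate 2 was the lowest array, and the log2 differences of Bub1 and Bub1b were -1.95 ± 0.47 and -2.15 ± 0.51 (SE).
The other 3 checkpoint members overlapped between the groups. Mad2l1, whose product inhibits Cdc20, differed by -0.83 ± 0.47, and Mad1l1, which anchors Mad2 at kinetochores, by -0.73 ± 0.47 (SE). In Mad2l1 control replicate 2 (7.93) stood above the other controls (6.23 and 6.48), and the difference was -0.31 without it. In Mad1l1 control replicate 3 (7.70) stood above the other controls (5.87 and 6.11), and the difference was -0.16 without it. Bub3 (Entrez 12237), the WD-repeat partner of both Bub kinases, was at 5.23, 7.27 and 7.14 in activated cultures, against 6.89, 7.10 and 6.27 in control cultures. Its difference was -0.21 ± 0.55 (SE; limma, adjusted p = 0.914), and it was 0.45 without activated replicate 1.

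The chromosomal passenger complex was lower in mean in 4 of 4 genes, with a median log2 difference of -1.52. All 4 were lower in each of the 3 numbered pairs, against 25% of all genes. Aurkb (Entrez 20877), its kinase, was at 4.96, 5.16 and 5.93 in activated cultures, against 6.24, 7.75 and 6.86 in control cultures, with every activated array below every control (-1.60 ± 0.43, SE; limma, adjusted p = 0.398). Cdca8 (borealin) differed by -1.43 ± 0.41 and also had separate groups. The scaffold Incenp and the survivin gene Birc5 differed by -1.71 ± 0.57 and -1.19 ± 0.52 (SE), with groups that overlapped by 0.04 and 0.43 on the log2 scale. Birc5 differed by -0.72 without activated replicate 1. The shugoshins shield centromeric cohesin. Sgo1 (Entrez 72415) was at 3.69, 3.46 and 4.00 in activated cultures, against 5.60, 6.11 and 4.86 in control cultures, and Sgo2a differed by -1.43 ± 0.55 (-0.78 without activated replicate 2). In both every activated value was below every control value (7.4% of all genes), and Sgo1 differed by -1.81 ± 0.35 (SE; limma, adjusted p = 0.252).

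The size of the difference varied between arrays with the same replicate number. The activated array was lower in 35 of the 40 genes in pair 1, in 38 in pair 2 and in 32 in pair 3, where 55.6%, 53.4% and 57.9% of all genes were lower. The median difference of the 40 genes was -1.27 in pair 1, -1.82 in pair 2 and -0.84 in pair 3. In all 3 pairs 27 of the 40 genes were lower, against 25% of all genes. Pair 3 gave the least negative difference, or a positive one, in 26 of the 40 genes. Activated replicate 3 was the highest activated array in 26 of the 40 genes, and control replicate 3 the lowest control array in 21. Mki67, a proliferation marker, also had its highest activated value in replicate 3 and its lowest control value in replicate 3, with 5.85, 4.99 and 7.79 in activated replicates 1, 2 and 3, against 8.28, 8.94 and 8.21 in control replicates 1, 2 and 3.

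**Figure D3:**
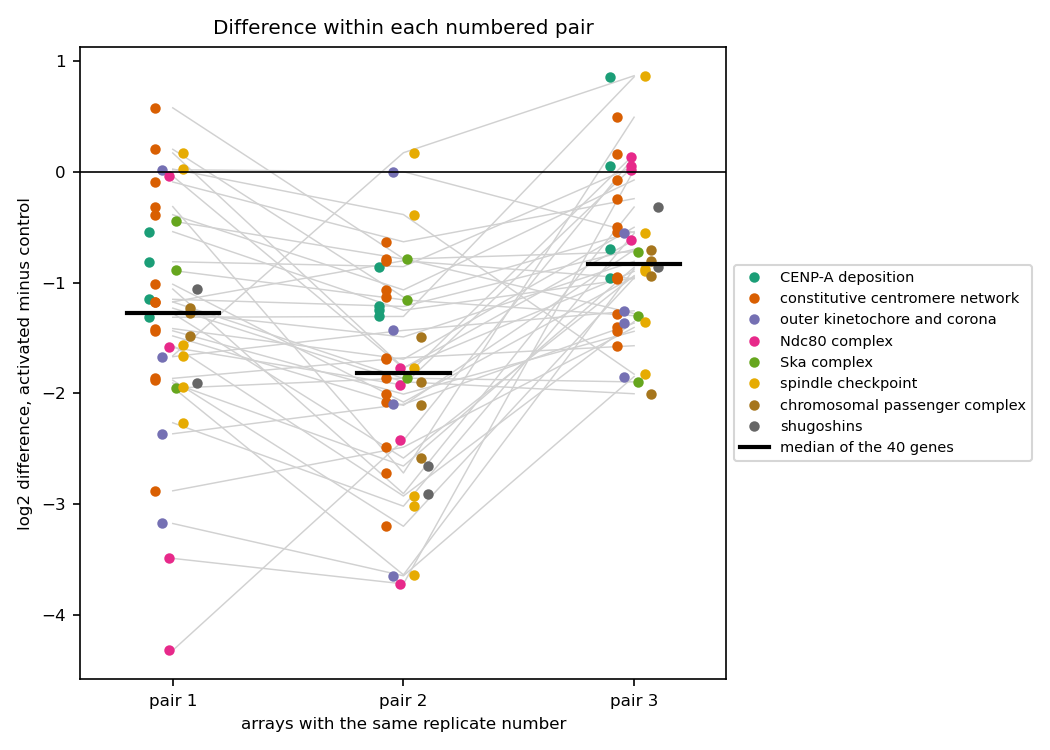
Log2 difference, activated minus control, within each pair of arrays that share a replicate number, for the 40 genes coloured by complex; grey lines join a gene's values and black bars are medians over the 40 genes. The medians are -1.27, -1.82 and -0.84, and in pair 3 Ndc80, Nuf2 and Spc25 (pink) lie near 0 while all Ska and passenger genes lie below it.

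Kinetochore and checkpoint genes outside the 40 were less uniform. Of 29 measured, 18 were lower and 11 higher in mean, where 59.7% of all genes were lower. Their median log2 difference was -0.31, beside -0.08 over all genes. In 10 the groups did not overlap with activated below (7.4% of all genes), and in 1 with activated above (5.4%). At an unadjusted p under 0.05, 10 were lower (3.42% of all genes) and 0 higher (4.44%), and 0 passed after adjustment (limma). The Mis12 complex subunit Nsl1 was at 3.47, 3.72 and 3.19 in activated cultures, against 5.11, 4.76 and 4.75 in control cultures (-1.41 ± 0.24, SE; limma, adjusted p = 0.204). Its complex partners Dsn1, Mis12 and Pmf1 differed by -0.11, 0.38 and -0.31, with overlapping groups. The scaffold Knl1, which binds Bub1 and Zwint, was at 5.16, 4.94 and 6.77, against 8.41, 7.47 and 7.61 (-2.21 ± 0.51, SE). The microtubule depolymerase Kif2c differed by -2.30 ± 0.51, and Kntc1, the partner of Zwilch, by -1.26 ± 0.32. Zw10, the third subunit with Kntc1 and Zwilch, which also works in membrane traffic, differed by -0.39 ± 0.21. The mitotic kinase Plk1 and the anaphase activator Cdc20 differed by -1.23 ± 0.64 and -1.09 ± 0.67, and for both activated replicate 3 (7.42 and 7.95) exceeded control replicate 3 (6.64 and 7.28). The gene with activated arrays above all controls was Ndel1, a dynein regulator also used outside mitosis, at 0.69 ± 0.31.

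**Figure D4:**
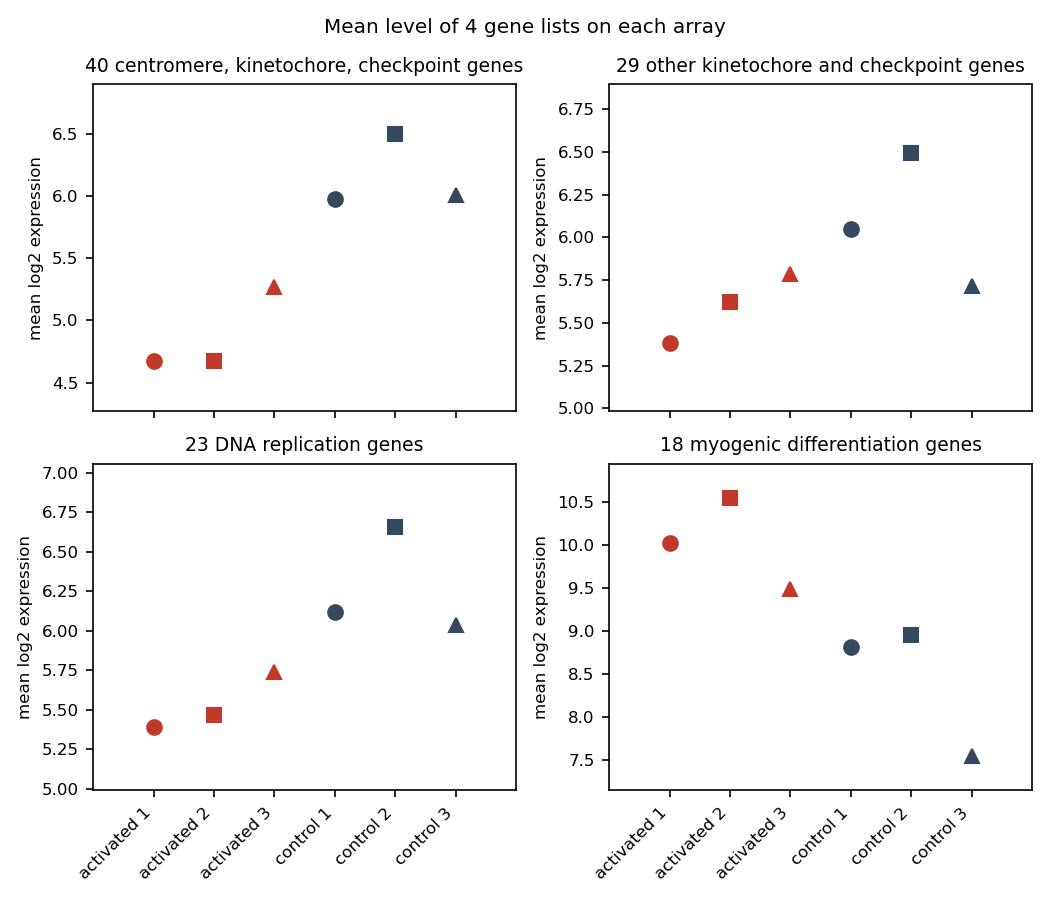
Mean log2 expression of 4 gene lists on each array, activated arrays at left (red) and control arrays at right (dark), with a marker shape for each replicate number and a separate axis range in each panel. The 40 genes and the DNA replication genes are lower, and the myogenic differentiation genes higher, on every activated array than on every control array, while the 29 other kinetochore genes overlap at replicate 3.

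The mean of 23 DNA replication genes was 5.39, 5.47 and 5.74 in activated replicates 1, 2 and 3, against 6.12, 6.66 and 6.03 in control replicates 1, 2 and 3. Of 18 genes of muscle differentiation, 17 were higher in mean in activated cultures, and their mean was 10.02, 10.54 and 9.48, against 8.82, 8.95 and 7.54. Control replicate 3 was lowest in that mean while its mean over the 40 genes was not the lowest of the controls. Markers of other cell types are read against the 59.7% of all genes with a lower mean. Leukocyte markers were lower in 5 of 6, with list means of 3.86 to 4.13 in activated and 4.03 to 4.78 in control cultures, and endothelial markers in 5 of 6 (2.97 to 3.20 and 3.12 to 3.41). Fibroblast markers were lower in 5 of 7 (3.93 to 4.19 and 4.04 to 4.19), and smooth muscle and pericyte markers in 4 of 5 (5.36 to 5.82 and 5.49 to 5.98). The median difference was -0.50 for leukocyte and -0.31 for endothelial markers. It was -0.09 for fibroblast and -0.16 for smooth muscle and pericyte markers, beside -0.08 over all genes. After repeated quantile normalization the leukocyte and endothelial counts stayed at 5 of 6, and the fibroblast and smooth muscle counts were 4 of 7 and 2 of 5. Every activated array lay below every control array in 4 of 6 leukocyte markers, where 7.4% of all genes did. That count was 1 of 6 for endothelial, 1 of 7 for fibroblast and 0 of 5 for smooth muscle and pericyte markers. The list means of all 4 cell types overlapped between the groups. The array's log2 values have no zero, so absence cannot be read from them. The part of these groups in the differences of the 40 genes was not tested.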

How the data were processed

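Log2 expression values of gene-level probe sets were deposited by the authors, and RMA and Partek are named, without version or role, per the submitters' processing notes. Per the labels' protocols, an Affymetrix whole-transcript kit turned 100 ng of RNA into biotin-labelled target. The sources used here give no array design, detection calls or build. Of 24479 probe sets, 23281 had 1 symbol in the platform annotation, 0 had several and 1198 none. For 2 symbols with several probe sets the brighter was kept, leaving 23279 genes.

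limma 3.58.1 (R 4.3.3) fitted group as the only term to all genes, two-sided, with Benjamini-Hochberg adjustment and no filter, and was tested on simulated data. RNA came from 3 independent cultures per condition, and the labels do not say whether from separate animals, so p-values reflect only the variation among those cultures. Precision is limited by the number of arrays. Deviations from group means correlated at 0.38, 0.49 and 0.45 between same-numbered arrays, all above the criterion of 0.1. The shared order of array spread can also produce such correlations. A second fit took the replicate number as a block, and it is given where it changes a call. SEs and p-values are from the fit without the block unless the block is named. With the block some SEs were smaller (Ska2, 0.19 against 0.72) and others larger (Nuf2, 0.78 against 0.76).

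The 40 genes and the other lists were chosen with earlier results of these data known. Values on every array are given for the 16 genes with the smallest p, any gene with a positive difference (there was 0) and the gene with the smallest p of each complex; per-array values of Cenpa, Nuf2, Zwint and Bub3 were added after their values were seen. Levels were not compared between genes, since probe sets differ in response. Alternatives were the block, leaving out pairs or arrays, other scalings, a filter on dim genes and another variance model.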

Additional observations from a re-analysis of the deposited data

How the results depend on the processing

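The sign of the median log2 difference of the 40 genes held under all 16 alternatives (-1.07 to -1.22 under the other scalings and -1.06 to -1.53 when 1 array was left out). Median centring moved the median of all genes from -0.08 to 0.04, a shift that is the same for every gene. The count at an unadjusted p under 0.05 stayed between 20 and 31, and 40 genes stayed lower under each scaling.

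With the replicate block, 1 of the 40 genes passed (Ska3) and 31 of all genes, with 3875 at an unadjusted p under 0.05. With the block and without replicate 3, 21 of the 40 passed and 501 of all genes, 34 of the 40 had groups of 2 arrays each that did not overlap (18.1% of all genes with activated below) and 3528 genes had an unadjusted p under 0.05. Without replicate 1 or 2 and with the block, 0 of the 40 passed, and 2822 and 2787 of all genes had an unadjusted p under 0.05. Repeated quantile normalization with the block, an alternative chosen after seeing the data, gave 0 passing and 3201 at that level. Leaving dim genes out gave 1166 at that level, with 37 of the 40 genes kept. Cenpu, Cenpl and Oip5 were the genes of the 40 left out. Leaving out 1 array in turn gave 907 (without activated replicate 2) to 3066 (without control replicate 2) at that level, against 1830 with all arrays. It gave 0 to 28 of all genes and 0 to 2 of the 40 past adjustment, both highest without activated replicate 3.

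Single genes that turned sign were Bub3 (0.52 with the block and without replicate 1, and -0.57 to 0.45 leaving out 1 array in turn, the positive value without activated replicate 1), Cenpw (0.0902 with the block and without replicate 2), Zwint (0.0103 with the block and without replicate 3, 0.28 without activated replicate 1 and, leaving out 1 array in turn, -0.73 to 0.36) and Ska2 (-1.30 to 0.0288 leaving out 1 array in turn, the positive value without activated replicate 3). With the block and a whole pair left out, Ska2 stayed lower (-0.75, -0.58 and -0.62 without replicates 1, 2 and 3). The cause of the sign changes was not tested. Probes near background compress differences, and without detection calls that limit cannot be set for a gene.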

Other observations

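DNA replication genes shared part of the pattern. Of 23 measured, 21 were lower in mean in activated cultures (59.7% of all genes), with a median log2 difference of -0.79, and in 8 every activated array lay below every control array (7.4% of all genes). Cdc6, which loads the replicative helicase, was at 3.93, 4.01 and 4.39 in activated cultures, against 5.48, 5.32 and 5.91 in control cultures (limma, adjusted p = 0.211). Pola1, the catalytic subunit of the primase-polymerase, was at 4.69, 4.06 and 4.79, against 5.81, 6.18 and 6.71 (limma, adjusted p = 0.252). At an unadjusted p under 0.05, 9 of the 23 were lower (3.42% of all genes) and 0 higher (4.44%), and 0 passed after adjustment (limma). In pair 3, 12 of the 23 were lower, with a median difference of -0.10, against 18 in pair 1 (-0.78) and 22 in pair 2 (-1.25).

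Of the muscle differentiation list, 14 of 18 genes had an unadjusted p under 0.05 and were higher in activated cultures (4.44% of all genes), and 0 passed after adjustment (limma). With the replicate block 2 of the 18 rose, Mef2c and Actn2 (limma, adjusted p = 0.0479 and 0.0434), among 28 genes of the whole table that did (0.12%). With the block and without replicate 1 or 2, 0 genes of the whole table passed, so both calls were lost. The embryonic myosin gene Myh3 was at 10.46, 10.49 and 9.79 in activated cultures, against 9.04, 9.35 and 8.40 in control cultures, and the calcium pump gene Atp2a1 at 8.12, 8.82 and 7.76, against 6.83, 6.96 and 6.99. In both genes the groups did not overlap.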
